A study of Homo sapiens with 6 samples.

Results

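The genes described here are 4 that respond to glucose or oxygen supply, namely ARRDC4, DDIT4, VEGFA and PGK1, out of 14884 gene symbols named in a table of 53617 rows. Each of the 4 genes had 1 row. The 4 genes were chosen with their values on these same arrays in view, namely the difference between TDNC1 and control cells, so that difference is given below as a description with no test. Expression was profiled with Affymetrix Human Gene 2.0 ST arrays in HEK293, a line of human embryonic kidney origin, using inducible Flp-In cells that take up a construct at 1 prepared genomic site. Of the 6 arrays, 3 were from cells stably overexpressing TDNC1 and 3 from control cells stably expressing a random RNA, and both kinds of cell were grown in high-glucose medium with serum, blasticidin and, after transfection, hygromycin. Stable clones were pooled, and the sources used here give neither the nature of TDNC1 nor the use of the inducer. The arrays of a group are called biological replicates without further detail, so any p-value covers the spread between these arrays, which may be partly technical.

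Cells sense glucose through the transcription factors MondoA and ChREBP, which bind DNA with their partner Mlx when glucose phosphates accumulate and switch on the alpha-arrestins TXNIP and ARRDC4, which in turn limit glucose uptake. They sense oxygen through prolyl hydroxylases that mark the alpha subunits of the hypoxia-inducible factors (HIF) for degradation by the VHL ubiquitin ligase, so that HIF accumulates when oxygen falls. DDIT4, also called REDD1, is induced by HIF, by p53, by glucocorticoids and by the stress factor ATF4, and restrains the growth kinase complex mTORC1 through the TSC proteins. VEGFA is the secreted growth factor of blood vessels and PGK1 an ATP-producing enzyme of glycolysis, and both are textbook HIF targets.

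The promoters of ARRDC4, DDIT4 and PGK1 are shown because these genes had high values on the same arrays and because HIF and Mlx complexes bind related core letters. Each line gives the 250 bases before the annotated gene start, 5′ to 3′, from RefSeq on GRCh38.p14, with capitals marking ACGTG or GCGTG, the core of the hypoxia response element, and CCAAT, the box bound by NF-Y, on either strand. VEGFA is named only.
ARRDC4 promoter, chr15:97960453-97960702, plus strand: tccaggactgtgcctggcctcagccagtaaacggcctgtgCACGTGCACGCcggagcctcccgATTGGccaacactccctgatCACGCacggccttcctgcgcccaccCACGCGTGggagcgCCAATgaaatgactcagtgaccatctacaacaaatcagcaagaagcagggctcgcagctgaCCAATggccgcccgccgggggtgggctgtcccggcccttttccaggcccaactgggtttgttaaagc
DDIT4 promoter, chr10:72273674-72273923, plus strand: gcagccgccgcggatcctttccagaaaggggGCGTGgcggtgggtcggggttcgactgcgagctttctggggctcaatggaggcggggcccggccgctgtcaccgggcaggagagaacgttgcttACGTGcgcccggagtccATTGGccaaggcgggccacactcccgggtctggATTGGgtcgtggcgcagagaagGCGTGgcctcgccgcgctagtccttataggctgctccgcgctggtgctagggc
PGK1 promoter, chrX:78103998-78104247, plus strand: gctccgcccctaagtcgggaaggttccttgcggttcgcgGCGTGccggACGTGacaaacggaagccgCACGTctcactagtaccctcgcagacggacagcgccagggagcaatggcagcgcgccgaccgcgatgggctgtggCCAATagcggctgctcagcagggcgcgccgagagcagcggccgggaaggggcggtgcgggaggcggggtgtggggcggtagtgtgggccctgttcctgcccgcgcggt

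The ARRDC4 window held 6 matches to ACGTG or GCGTG, of which 2 are the opposite strands of 1 E-box, CACGTG, that starts 210 bases before the gene start. The DDIT4 window held 3 such matches and the PGK1 window 3, and neither held CACGTG. The core was found in 43.1% of the windows of the same length of 27305 genes, and CACGTG in 6.49%. CCAAT was matched 3 times for ARRDC4, 2 times for DDIT4 and 1 time for PGK1, against 33.04% of all windows with at least 1 match. The letters TGATGNAA, the composite element bound by ATF4, were in none of the 3 windows and in 3.19% of all. A match describes letters and not bound sites.

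ARRDC4 had the greatest difference of the 4 genes. Its log2 expression was 9.76, 9.80 and 8.41 on the 3 TDNC1 arrays, against 8.06, 8.11 and 8.14 on the 3 control arrays. TDNC1 replicates 1 and 2 were high, TDNC1 replicate 3 was only 0.27 above the highest control array, and the groups did not overlap. The means were 9.32 ± 0.79 in TDNC1 cells and 8.10 ± 0.04 in control cells (SD, n = 3 each), a log2 difference of 1.22 (SE 0.35), or 2.33-fold. Without TDNC1 replicate 3 it was 1.68 (SE 0.09), or 3.19-fold.

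DDIT4 had the second greatest difference and an overlap between the groups. It stood at 8.81, 8.85 and 7.52 on the TDNC1 arrays, against 7.76, 7.58 and 7.69 on the control arrays. TDNC1 replicates 1 and 2 lay more than 1 log2 unit above every control, while TDNC1 replicate 3 was the lowest of all 6 arrays. The means were 8.39 ± 0.76 in TDNC1 cells and 7.67 ± 0.09 in control cells (SD, n = 3 each), a log2 difference of 0.72 (SE 0.34), or 1.65-fold, and without TDNC1 replicate 3 it was 1.16 (SE 0.10), or 2.23-fold. The size of the DDIT4 difference thus rested on whether that array was counted.

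VEGFA and PGK1 had smaller differences. VEGFA stood at 7.99, 7.86 and 7.57 on the TDNC1 arrays, against 7.48, 7.32 and 7.51 on the control arrays. The groups did not overlap, but only 0.06 separated TDNC1 replicate 3 from control replicate 3. VEGFA averaged 7.81 ± 0.22 in TDNC1 cells and 7.44 ± 0.10 in control cells (SD, n = 3 each), a log2 difference of 0.37 (SE 0.13), or 1.29-fold, and 0.49 (SE 0.11) without TDNC1 replicate 3.

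PGK1 stood at 8.62, 8.65 and 8.27 on the TDNC1 arrays, against 8.23, 8.20 and 8.31 on the control arrays. TDNC1 replicates 1 and 2 were above all controls, and TDNC1 replicate 3 lay within the control range, so the groups overlapped. The means were 8.51 ± 0.21 in TDNC1 cells and 8.25 ± 0.06 in control cells (SD, n = 3 each), a log2 difference of 0.26 (SE 0.12), or 1.20-fold, and 0.39 (SE 0.09) without TDNC1 replicate 3. PGK1 has processed pseudogenes of similar sequence, and the sources used here do not say whether the probes of its row tell them apart.

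**Figure D1:**
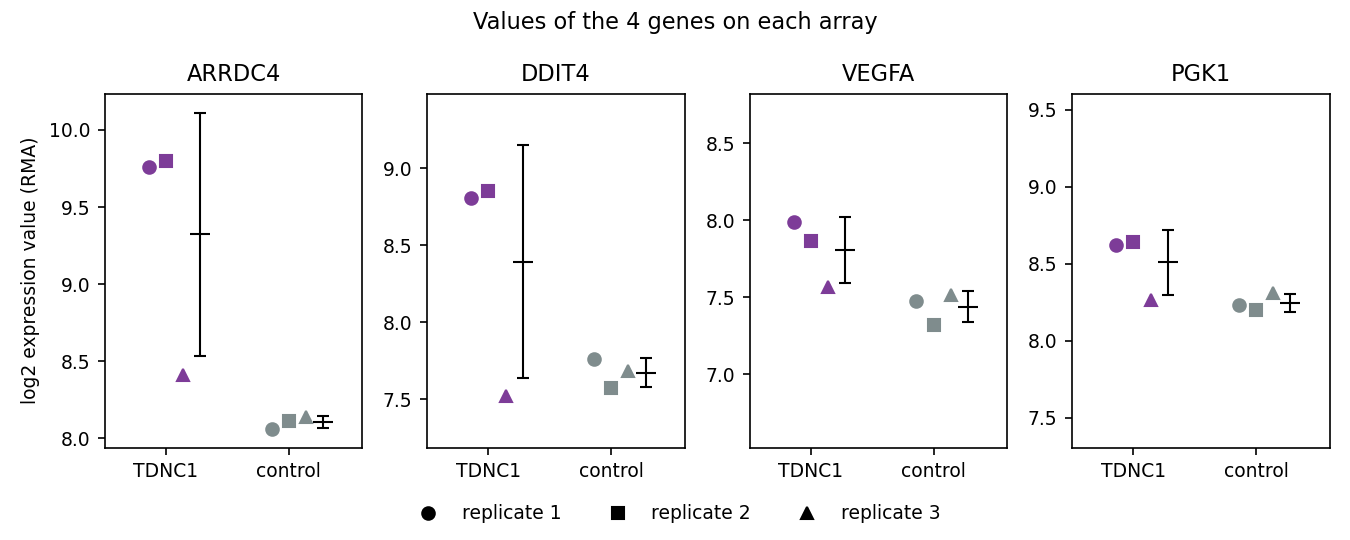
Log2 expression value of ARRDC4, DDIT4, VEGFA and PGK1 on each array, with TDNC1 arrays at the left and control arrays at the right of each panel, symbols for the replicate number, and a bar for the mean ± SD (n = 3). All panels span the same number of log2 units. TDNC1 replicates 1 and 2 are high in each panel, and TDNC1 replicate 3 lies near the controls, from 7.52 for DDIT4 to 8.41 for ARRDC4.

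All 3 TDNC1 arrays were above all 3 control arrays for 2 of the 4 genes, ARRDC4 and VEGFA. That order was found in 6.48% of all rows and 8.95% of named genes. Without TDNC1 replicate 3 the count was 4 of 4, against 15.9% of all rows and 23.0% of named genes. Because the genes were chosen on this contrast, nothing is read from these counts.

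Over the whole table, TDNC1 replicate 3 was unlike TDNC1 replicates 1 and 2. Its median absolute difference over all rows was 0.188 and 0.177 from TDNC1 replicates 1 and 2, which differed by 0.134. From control replicates 1, 2 and 3 it was 0.161, 0.156 and 0.136. Control replicate 3 was likewise 0.162 and 0.160 from control replicates 1 and 2, which differed by 0.136. The arrays numbered 3 were thus each nearest to the other. The differences of the 4 genes and the counts of the pathway lists are also given without TDNC1 replicate 3. Of 10 markers of HEK293 cells, 6 were measured, and the filament genes VIM (8.62 to 8.76) and KRT18 (9.07 to 9.34) and the kidney factor PAX2 (5.78 to 6.49) were among them. Markers of other cells were partly measured (3 of 8 for fibroblasts, 4 of 8 for blood cells, 4 of 6 for endothelial cells). Among these, DCN (2.02 to 2.42) lay below and PECAM1 (4.20 to 4.35) slightly above the lower quartile of the arrays (3.77 to 3.84), while THY1 (5.46 to 5.97), CLDN5 (6.42 to 6.81) and CD68 (8.08 to 8.39) lay above the array medians (5.16 to 5.22). No marker list had a gene that passed the test (limma; PAX2 and ESAM had higher values in TDNC1 cells at an unadjusted p under 0.05). The summed log2 level of the 4 endothelial markers was 21.9 to 22.1 in TDNC1 cells and 21.4 to 21.6 in control cells, with ESAM, a junction adhesion protein, at 6.10, 6.09 and 6.56 against 5.85, 5.80 and 5.96. The summed level was 10.9 to 12.3 in TDNC1 cells and 11.5 to 11.96 in control cells for fibroblast markers, and 23.4 to 23.7 in TDNC1 cells and 23.3 to 23.6 in control cells for blood markers. Their part in the values of the 4 genes was not tested.

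The 4 genes shared the order of the arrays at the top but not below it. TDNC1 replicates 1 and 2 were the 2 highest arrays for each gene, and they differed from each other by 0.04 for ARRDC4, 0.04 for DDIT4, 0.13 for VEGFA and 0.02 for PGK1. Both of these arrays were above all 3 control arrays for 23.0% of named genes. The 4 genes were chosen on the contrast of TDNC1 with control cells, so nothing is read from the order at the top. Over TDNC1 replicate 3 and the controls, ARRDC4 and VEGFA were highest in TDNC1 replicate 3, DDIT4 was lowest there and PGK1 was highest in control replicate 3. For these genes the values split into a high pair of arrays and the rest, with too few arrays in each for a correlation, and none is given.

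The height reached by TDNC1 replicate 3 also differed between the genes. Its value minus the control mean was 0.31 for ARRDC4, -0.15 for DDIT4, 0.13 for VEGFA and 0.02 for PGK1. As a percent of the difference found without it, this was 18.4% for ARRDC4, -13.3% for DDIT4, 26.7% for VEGFA and 5.38% for PGK1. Over the 1335 named genes with a difference of at least 0.3 without that array, the median was 19.3%, with quartiles at -4.95% and 44.4%. ARRDC4, VEGFA and PGK1 lay between these quartiles and DDIT4 below the lower one. These genes were picked by the values they describe, and no test was made.

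**Figure D2:**
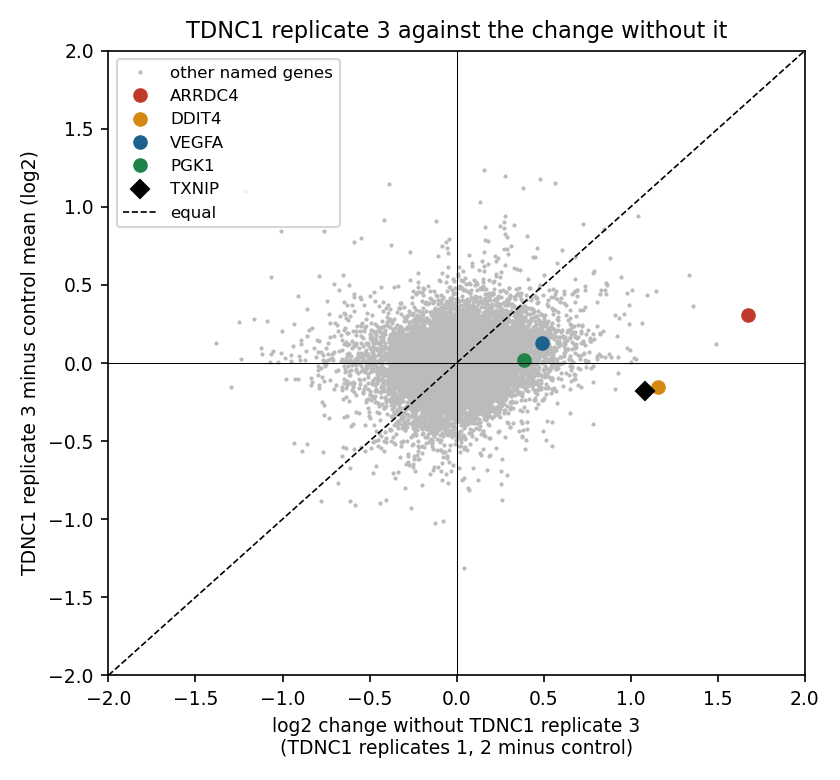
Each point is a named gene, with the log2 difference found without TDNC1 replicate 3 on the horizontal axis and the value of TDNC1 replicate 3 minus the control mean on the vertical axis (log2), both against the 3 control arrays, so the axes share those arrays. ARRDC4 (1.68 and 0.31) and DDIT4 (1.16 and -0.15) lie far to the right and well below the line of equal values, as does TXNIP. VEGFA (0.49 and 0.13) and PGK1 (0.39 and 0.02) lie within the cloud, among 1335 named genes at 0.3 or more on the horizontal axis. One line marks equal values, and 1 gene beyond 2 log2 units on an axis is not drawn.

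As profiles over the 6 arrays, each value taken minus the gene's control mean, VEGFA and PGK1, the 2 genes with the smallest differences between the groups, had a root mean square difference of 0.0933, the lowest of the 6 pairs. ARRDC4 and DDIT4 differed by 0.361, DDIT4 from VEGFA by 0.407 and from PGK1 by 0.454, and ARRDC4 from VEGFA by 0.694 and from PGK1 by 0.754.

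The profile most like that of ARRDC4 among 14883 other genes was the zinc finger gene ZC3H6, with a root mean square difference of 0.154 over the 6 arrays. ZC3H6 stood at 7.97, 7.96 and 6.60 on the TDNC1 arrays, against 6.56, 6.49 and 6.37 on the control arrays. ARHGEF6 (0.271), the antiviral membrane protein gene BST2 (0.305), PPIL6 (0.345) and CLYBL (0.353) followed at clearly greater distances.

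The profile most like that of DDIT4 was IMPACT, which encodes an inhibitor of the amino acid sensor GCN2, with a root mean square difference of 0.115. IMPACT stood at 8.85, 8.79 and 7.81 on the TDNC1 arrays, against 7.79, 7.73 and 7.84 on the control arrays. TMEM150C (0.118), NRN1 (0.147), the secreted protease gene HTRA1 (0.154) and TXNIP (0.158) came next. TXNIP, an alpha-arrestin like ARRDC4, was thus among the 5 nearest profiles of DDIT4 and not of ARRDC4. This distance counts size as well as shape, so the ranking does not compare the shapes. Without TDNC1 replicate 3 the log2 difference was 1.08 for TXNIP, 1.16 for DDIT4 and 1.68 for ARRDC4.

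The distance is not scaled for the size of a profile, so small profiles have more near neighbours. The root mean square of the profile itself was 0.976 for ARRDC4, 0.673 for DDIT4, 0.295 for VEGFA and 0.225 for PGK1. The nearest to VEGFA were ZNF83 (0.0324), DCAF16 (0.0378), PRPS2 (0.0433), HPGD (0.0435) and ADAM23 (0.0439), and 199 genes lay within 0.1. The nearest to PGK1 were LRRFIP1 (0.0208), EDDM3A (0.0245), MOSPD2 (0.0251), GCFC2 (0.0272) and KCNJ2-AS1 (0.0297), and 585 genes lay within 0.1. No gene lay within 0.1 of ARRDC4 or of DDIT4.

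The other genes of these pathways were taken from 9 lists, 1 of them with no named row. Once the 4 genes are left out, 113 of 186 listed genes were measured, and these were tested by limma over all rows. Of the 113, 0 passed in either direction (limma, Benjamini-Hochberg adjusted p at least 0.631), where 0.00187% of all rows were called. At an unadjusted p under 0.05, 13 had higher and 3 lower values in TDNC1 cells. The background was 3.74% of all rows higher and 3.96% lower, and 4.59% higher and 2.56% lower over the named genes, to which the lists belong, against 11.5% and 2.65% of the 113. Without TDNC1 replicate 3, again 0 of the 113 were called, against 0.0429% of all rows, and 25 had higher and 8 lower values by the unadjusted threshold. The background there was 6.87% of all rows higher and 7.62% lower, and 10.1% higher and 7.46% lower over the named genes, against 22.1% and 7.08% of the 113. The differences given below for list genes are values that did not pass.

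Among alpha-arrestins, the adaptor family of ARRDC4, 0 of 5 other members had an unadjusted p under 0.05, and the median log2 difference was -0.05, against 0.003 over all named genes. By that threshold 4.59% of all named genes were higher and 2.56% lower. TXNIP, which binds thioredoxin and withdraws glucose transporters from the cell surface, stood at 7.13, 6.95 and 5.78 on the TDNC1 arrays, against 6.20, 5.98 and 5.70 on the control arrays. Its log2 difference was 0.66 (SE 0.35), and the groups overlapped because TDNC1 replicate 3 lay below control replicates 1 and 2. Without that array it was 1.08, and TXNIP was then the 1 of 5 (20%) past the unadjusted threshold. Of all named genes, 10.1% were then higher and 7.46% lower. ARRDC3, an arrestin that binds beta-adrenergic receptors, had 0.08 (SE 0.12), ARRDC2 -0.05 (SE 0.08) and ARRDC5 -0.17 (SE 0.10).

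The genes of the glucose-sensing factors went both ways. MLXIP, the gene of MondoA, had a log2 difference of -0.13 (SE 0.09), with an overlap. MLX, the gene of the common partner, stood at 9.44, 9.54 and 9.75 on the TDNC1 arrays, against 9.90, 9.98 and 9.87 on the control arrays, a difference of -0.34 (SE 0.11) with no overlap. All 3 TDNC1 arrays were below all 3 control arrays for 6.7% of all rows. MLXIPL, the gene of ChREBP, stood at 6.69, 6.26 and 6.33 on the TDNC1 arrays, against 5.99, 6.15 and 6.38 on the control arrays, a difference of 0.25 (SE 0.16) with an overlap. The 15 measured genes of these factors and their targets had a median of 0.14. By the unadjusted threshold, 2 had higher (13.3%) and 1 lower values (6.67%), against 4.59% and 2.56% of all named genes. Without TDNC1 replicate 3, 4 had higher (26.7%) and 2 lower values (13.3%), against 10.1% and 7.46%. With all arrays the higher ones were RGS16, a regulator of G protein signalling, with 0.30 (SE 0.10), and the Krüppel-like repressor gene KLF11 with 0.38 (SE 0.14). Transketolase, TKT, had -0.22 (SE 0.09) and the hexokinase gene HK2 0.05 (SE 0.09).

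Of 21 glycolytic enzyme genes listed beside PGK1, 11 were measured, with a median log2 difference of 0.05. No row used here bears the name of a listed PFK, ALDO or ENO gene or of PKM, so their steps are not covered. Of the 11 measured, 0 had an unadjusted p under 0.05, with all arrays or without TDNC1 replicate 3. The shares of all named genes were 4.59% higher and 2.56% lower, and without that array 10.1% and 7.46%. The triose phosphate isomerase gene TPI1 had 0.21 (SE 0.10), with no overlap, the testis-type lactate dehydrogenase gene LDHC 0.30 (SE 0.16), PGAM1, the enzyme after PGK1 in the pathway, -0.17 (SE 0.10) and the lactate dehydrogenase gene LDHA -0.09 (SE 0.09). No row is named for the 14 glucose transporter genes listed, so they were not analysed here.

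Of the oxygen-sensing machinery, 8 of 17 genes were measured, with 0 higher and 1 lower by the unadjusted threshold. Without TDNC1 replicate 3 this turned to 2 higher, EGLN3 and EGLN1, and 0 lower, so the direction of the count rested on that array. With so few genes measured, 1 gene is 12.5% of the list, against 4.59% higher and 2.56% lower of all named genes with all arrays. The 2 higher without that array are 25%, against 10.1% higher and 7.46% lower of all named genes. CUL2, the scaffold of the VHL ligase, stood at 9.84, 9.75 and 9.81 on the TDNC1 arrays, against 10.00, 10.02 and 9.99 on the control arrays, a log2 difference of -0.21 (SE 0.08). The prolyl hydroxylase genes EGLN3 and EGLN1, themselves HIF targets, had 0.26 (SE 0.14) and 0.19 (SE 0.11). ARNT, the gene of the beta subunit, had 0.07 (SE 0.08) and EPAS1, the gene of HIF-2 alpha, 0.10 (SE 0.11). No row used here bears the name HIF1A, CA9, PDK1 or SLC2A1.

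HIF targets outside glycolysis were more often above than below the controls. Of 28 measured, VEGFA and DDIT4 left out, 5 had higher (17.9%) and 0 lower values by the unadjusted threshold, against 4.59% and 2.56% of all named genes. The median log2 difference was 0.12, and 21 were above 0, or 75% against 51.1% of all named genes. The 5 were TMEM45A with 0.33 (SE 0.11), ZNF292 with 0.32 (SE 0.11), the collagen cross-linking oxidase gene LOX with 0.38 (SE 0.14), the mitophagy receptor gene BNIP3L with 0.28 (SE 0.11) and the stress-response gene NDRG1 with 0.36 (SE 0.14). LOX stood at 7.86, 7.71 and 7.43 on the TDNC1 arrays, against 7.14, 7.33 and 7.39 on the control arrays. BNIP3 had 0.20 (SE 0.12), and ADM, which encodes the vasodilator adrenomedullin, -0.11 (SE 0.16).

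The count of these HIF targets depended on single arrays. Without TDNC1 replicate 3 it was 11 higher (39.3%) and 1 lower (3.57%) of 28, with a median of 0.17, and the shares over all named genes were also greater, at 10.1% higher and 7.46% lower. Without TDNC1 replicate 1 it was 0 higher, without TDNC1 replicate 2 it was 2, without control replicate 1 it was 2 and without control replicate 2 it was 1.

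**Figure D3:**
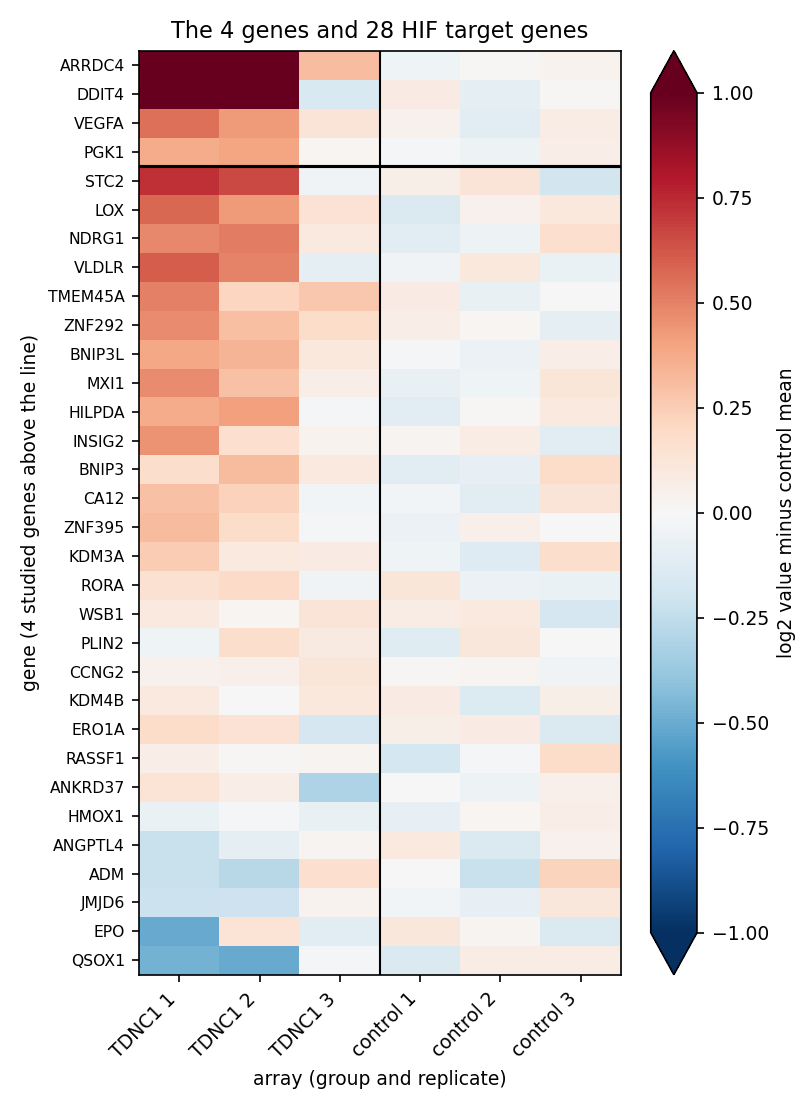
Log2 value minus the gene's control mean, by colour, for the 4 genes above the line and the 28 measured HIF targets below it, ordered by their difference, with the TDNC1 arrays at the left and the control arrays at the right. Values beyond 1 in size take the end colours. For the 4 genes above the line, the red of TDNC1 replicates 1 and 2 is weaker or absent in TDNC1 replicate 3, where DDIT4 is at -0.15. Not every HIF target has that pattern, as TMEM45A stood at 6.22 on TDNC1 replicate 2 and 6.28 on TDNC1 replicate 3.

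The other VEGF ligands and the VEGF receptors had log2 differences from -0.21 for NRP1 to 0.14 for FLT4. Of 8 measured, 0 had an unadjusted p under 0.05, with all arrays or without TDNC1 replicate 3, and the median was -0.01. Among all named genes 4.59% were higher and 2.56% lower, and 10.1% and 7.46% without that array. VEGFB had a log2 difference of -0.10 (SE 0.11) and the lymphatic ligand gene VEGFC -0.14 (SE 0.10). Among receptors, the co-receptor gene NRP1 had -0.21 (SE 0.12), the lymphatic receptor gene FLT4 0.14 (SE 0.13) and KDR, the main endothelial receptor, 0.04 (SE 0.11). The difference between VEGFA and these genes was not tested.

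The list of mTORC1, which DDIT4 restrains, and its regulators had 25 measured genes and a median log2 difference of 0.005. By the unadjusted threshold, 1 was higher and 1 lower (4.0% each), against 4.59% and 2.56% of all named genes. Without TDNC1 replicate 3 it was 2 higher (8.0%) and 5 lower (20%), against 10.1% and 7.46% of all named genes. With all arrays the higher one was DEPTOR, which encodes an inhibitor bound to mTOR, at 6.89, 6.89 and 6.40 on the TDNC1 arrays, against 6.13, 6.03 and 6.33 on the control arrays, a log2 difference of 0.56 (SE 0.16). The lower one was NPRL3, a subunit of the GATOR1 complex that restrains mTORC1, with -0.31 (SE 0.12). TSC2, through which DDIT4 acts, stood at 7.65, 7.64 and 8.08 on the TDNC1 arrays, against 8.06, 8.15 and 8.11 on the control arrays, a difference of -0.31 (SE 0.14) with an overlap. AKT1S1, which encodes the mTORC1 inhibitor PRAS40, had -0.49 (SE 0.23), and -0.78 without TDNC1 replicate 3. The translation repressor gene EIF4EBP2 had -0.33 (SE 0.15), the leucine sensor gene SESN2 -0.20 (SE 0.17), MTOR itself 0.02 (SE 0.09) and DDIT4L, the paralogue of DDIT4, 0.005 (SE 0.16).

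ATF4 targets, which include DDIT4, had 5 of 18 other measured genes higher and 0 lower by the unadjusted threshold, and 8 higher and 1 lower without TDNC1 replicate 3. As shares these were 27.8% higher with all arrays, against 4.59% higher and 2.56% lower of all named genes. Without that array they were 44.4% higher and 5.56% lower, against 10.1% and 7.46%. Only 18 of 27 listed genes were measured, with a median log2 difference of 0.06. Of these, 12 were above 0 and 6 below it, among them SESN2 with -0.20 (SE 0.17) and ATF3 with -0.04 (SE 0.24). The 4 genes with the smallest p were ATF4 itself with 0.24 (SE 0.10), the asparagine synthetase gene ASNS with 0.56 (SE 0.18), DDIT3 with 0.49 (SE 0.16) and the mitochondrial PEP carboxykinase gene PCK2 with 0.34 (SE 0.10).

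**Figure D4:**
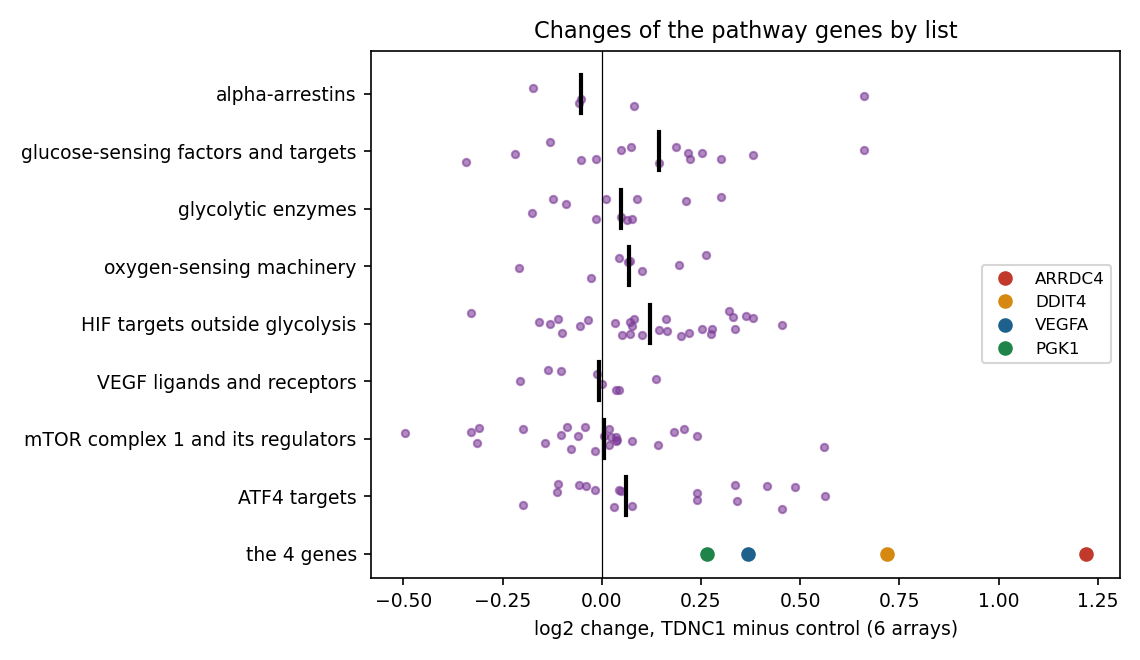
Log2 difference, TDNC1 minus control over 6 arrays, for each measured gene of 8 lists (points, spread vertically at random, black bars for the list medians) and for the 4 genes in the lowest row, where ARRDC4 is at 1.22 and PGK1 at 0.26. A gene that stands in several lists is drawn in each. The list medians lie between -0.05 and 0.14, and no point of a list passed the test.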

How the data were processed

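Total RNA was hybridised to 1 array per sample, 3 TDNC1 and 3 control. The deposited values are log2 expression values that the authors made with Affymetrix Power Tools (RMA), according to the submitters' processing notes. The sources used here give no version or genome build, and the log2 scale was judged from the range of 0.79 to 13.85. RMA gives all arrays a common distribution, so a shift of most genes in 1 direction would be removed. Array medians were 5.16 to 5.22, and the number of arrays limits the precision.

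Of 53617 rows, 16098 had 1 gene symbol in the platform annotation, 0 had several and the rest are unnamed here. Symbols were updated by entrez identifier through the GRCh38.p14 table of genes, which held all 16098. The brightest row stood for a symbol. All rows were fitted with limma 3.58.1 in R 4.3.3 (lmFit, eBayes, two-sided, no covariate) and called where the Benjamini-Hochberg adjusted p was under 0.05. The fit was tested on simulated data.

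The 4 genes, the lists and the tests were chosen with earlier results of these data known. Named genes are the 4 genes, the 4 genes of each list with the smallest p plus a fixed set, and the 5 nearest profiles of each gene. ESAM, the other cell type markers printed, and MLXIPL, AKT1S1, KLF10, ATF3, STC2 and VLDLR were named after their values were seen. The motifs were also chosen then. Motif shares use 1 window per gene. Alternatives were a replicate block, leaving out arrays, a filter on dim rows, another variance model, array weights and 2 scalings. Averaging the rows of a symbol was not needed, as each of the 4 genes has 1 row.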

Additional observations from a re-analysis of the deposited data

How the results depend on the processing

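The log2 differences of ARRDC4, DDIT4, VEGFA and PGK1 stayed above 0 and moved by less than the spread between replicates in each of the 13 alternatives. That spread pools the SD of both groups and includes TDNC1 replicate 3. For ARRDC4 the SD was 0.79 in TDNC1 and 0.04 in control cells, and for DDIT4 0.76 and 0.09. It was thus a loose limit for alternatives that leave that array out, and no steadiness is read from it. Leaving out 1 array at a time gave 0.98 to 1.68 for ARRDC4, 0.49 to 1.16 for DDIT4, 0.28 to 0.49 for VEGFA and 0.20 to 0.39 for PGK1, the highest each time without TDNC1 replicate 3. The number of rows past the threshold was 1 with all arrays and 1 to 23 with 1 array left out, at 23 without TDNC1 replicate 3 and 2 without control replicate 3, and the count of called list genes was 0 in every alternative run. HIF targets higher at an unadjusted p under 0.05, 5 with all arrays, numbered 0 to 11 with 1 array left out, 10 when arrays were weighted and 10 with both replicates 3 left out.

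The replicate numbers were not taken as pairs, since the deviations of same-numbered arrays correlated at 0.04, -0.0013 and 0.05, and not every array correlated best with its own number. With the replicate block 1 row passed, 0 list genes passed and 3 HIF targets were higher at an unadjusted p under 0.05, and the 4 differences were 1.22, 0.72, 0.37 and 0.26, as without it.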

Other observations

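Some genes of the same lists were highest in replicate 3 of each group. KLF10, a TGF-beta and glucose responsive repressor gene, stood at 7.93, 7.88 and 8.75 on the TDNC1 arrays, against 7.73, 7.61 and 8.57 on the control arrays. Replicate 3 was the highest array of each group, the groups overlapped, and the log2 difference of KLF10 was 0.22 (SE 0.32). ATF3, a stress-induced transcription factor gene, stood at 7.09, 7.06 and 7.54 on the TDNC1 arrays, against 6.98, 7.05 and 7.78 on the control arrays, with the same array high in each group. Both values are descriptions with no test.

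STC2, the stanniocalcin gene, and VLDLR, a lipoprotein receptor gene, stand in both the HIF and the ATF4 list. STC2 stood at 8.71, 8.64 and 7.94 on the TDNC1 arrays, against 8.04, 8.10 and 7.79 on the control arrays, and VLDLR at 6.88, 6.77 and 6.18 against 6.24, 6.38 and 6.20. For both, TDNC1 replicates 1 and 2 were above all controls and TDNC1 replicate 3 was not. Neither passed the test (limma, adjusted p = 0.655 for STC2 and 0.687 for VLDLR).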
